A study of Mus musculus with 14 samples.

Results

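The genes described here encode the machinery that brings proteins into the endoplasmic reticulum (ER) and attaches N-linked glycans to them. They are 34 listed genes, all of them found among the 20515 named genes measured by total RNA-seq of mammary tissue. The list holds 5 genes of the signal recognition particle (SRP), 2 of its receptor, 4 of the SEC61 channel, 2 of the SEC62 and SEC63 pair, 2 of TRAM, 4 of the TRAP complex, 5 of signal peptidase and 10 of oligosaccharyltransferase (OST). The genes were listed by function, with earlier results of these data known, and the rule itself uses no measured value. The tissue came from 2 C57BL/6 mice with the genotype labelled WT_wTbrg4, on day 10 of lactation (L10). Both mice carry a wild-type allele and a *Wap-Tbrg4* allele, in which a CRISPR-Cas9 deletion joined the *Wap* super-enhancer, promoter and first exon to the downstream *Tbrg4* gene. Every value below is therefore from heterozygous tissue, and neither mouse is a wild-type control. The series lists 14 samples, and its 12 ChIP-seq samples are not analysed here.

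SRP binds the signal peptide of a protein as it leaves the ribosome and docks at the SRP receptor on the ER membrane. The chain then passes through the SEC61 channel with the help of TRAP, TRAM, SEC62 and SEC63, signal peptidase removes the signal peptide, and OST transfers a preassembled glycan to asparagine residues. Milk proteins such as caseins, whey acidic protein and α-lactalbumin enter the secretory pathway by this route, and the alveolar cells that make them are rich in rough ER.

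The values are length-normalized fragment counts (FPKM), given by the authors for the collapsed exons and for the introns of each gene. Since FPKM is per length, levels can be set side by side between genes. Read counts are not given, so the depth behind a value is unknown and its error is the spread (SD) between the 2 mice. With a single genotype no group test was possible. A difference between genes is said to exceed the spread when both values of the higher gene lie above both values of the lower.

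The genes used for background are the 9845 whose exon FPKM averaged 1 or more over the mice, and all 34 genes of ER entry are among them. Exon FPKM added up to 852961 in replicate 1 compared with 1788120 in replicate 2, and 79.5% and 90.6% of these sums came from the 10 highest genes. *Csn2*, the β-casein gene, was at 108555 in replicate 1 and 481937 in replicate 2. Exon values on the deposited scale differed between the mice with GC content as well, as given below. Markers of milk-secreting epithelium were all detected, with the transcription factor gene *Elf5* at 186 and 205 FPKM, while *Krt18* (145 and 57.6 FPKM) and *Krt8* (31.4 and 14.6 FPKM) were lower in replicate 2. After the correction for GC content described below, the log2 ratios of replicate 2 to replicate 1 were -0.92 for *Krt18* and -0.61 for *Krt8*, short of 2-fold. The 4 myoepithelial markers summed to 43.4 and 32.5 FPKM, with *Acta2* listed at 0 in both mice. *Krt14* (17.9 and 5.4 FPKM) and *Krt5* (6.6 and 3.5 FPKM) were lower in replicate 2, and *Oxtr* (18.9 and 23.6 FPKM) was higher. After GC correction *Krt14* was at -1.10, still past 2-fold, as were 2.01% of background genes. The adipocyte markers summed to 98.7 and 119.9 FPKM. *Adipoq* (85.3 and 113 FPKM) was higher in replicate 2, whereas *Plin1* (7.8 and 2.6 FPKM) and *Lep* (5.6 and 4.3 FPKM) were lower. The endothelial markers summed to 46.1 and 40.1 FPKM and the fibroblast to 98.3 and 58.6 FPKM. The leukocyte markers summed to 5.6 and 5.2 FPKM, with *Cd3e* at 0.0 and 0.1 FPKM. Plasma cells also secrete glycoproteins, and their markers summed to 116.4 and 95.3 FPKM, of which *Jchain* held 107.4 and 89.3 FPKM, *Mzb1* 2.6 and 2.2 FPKM and *Sdc1* 6.4 and 3.8 FPKM. The part of these cells in the levels below was not tested, and in bulk tissue fewer cells of a type and less RNA per cell cannot be told apart.

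One gene of the list needs its sequence shown before its values are read. *Sec61g* encodes the small γ subunit of SEC61, without which the channel is incomplete, yet its exon level was among the lowest of the list. It lies on the minus strand of chromosome 11 of GRCm38 (the assembly called mm10), at chr11:16501638-16508484. Near-identical copies of its coding sequence were found at 5 other places, counting those that cover at least 50% of the longest coding sequence at an identity of at least 95%. The 207 bases of its shorter RefSeq coding sequence recur without a difference at chr9:37252975-37253181, within the span of *Slc37a2*. The lines below give this coding sequence and its 4 other copies 5′ to 3′, each read in the direction of *Sec61g*, with capitals marking the bases that differ from it. Substitutions are counted from 1 at the first base of the start codon, with the *Sec61g* base first.
Sec61g coding sequence: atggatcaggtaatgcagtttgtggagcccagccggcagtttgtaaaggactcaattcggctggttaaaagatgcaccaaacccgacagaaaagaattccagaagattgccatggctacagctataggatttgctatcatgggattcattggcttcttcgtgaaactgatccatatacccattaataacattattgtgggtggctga
copy on chromosome 10: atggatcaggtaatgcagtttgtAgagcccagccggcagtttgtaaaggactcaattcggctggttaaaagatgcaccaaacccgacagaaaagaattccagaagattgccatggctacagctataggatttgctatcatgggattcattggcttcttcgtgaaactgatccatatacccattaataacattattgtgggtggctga
copy on chromosome 1: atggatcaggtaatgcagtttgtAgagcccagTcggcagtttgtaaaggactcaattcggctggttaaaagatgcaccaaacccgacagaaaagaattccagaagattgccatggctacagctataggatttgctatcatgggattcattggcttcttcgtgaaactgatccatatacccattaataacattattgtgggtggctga
copy on chromosome 2: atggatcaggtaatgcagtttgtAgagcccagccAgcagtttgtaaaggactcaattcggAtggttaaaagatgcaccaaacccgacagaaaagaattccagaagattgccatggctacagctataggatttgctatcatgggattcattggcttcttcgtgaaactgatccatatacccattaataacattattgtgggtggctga
copy on chromosome X: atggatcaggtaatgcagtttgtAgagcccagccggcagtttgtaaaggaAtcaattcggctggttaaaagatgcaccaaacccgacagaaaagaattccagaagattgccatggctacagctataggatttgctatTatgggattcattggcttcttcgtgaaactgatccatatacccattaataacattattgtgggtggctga
The copy on chromosome 10, at chr10:89878300-89878506 within *Anks1b*, differs by G24A. That at chr1:60522812-60523018, within *Raph1*, carries G24A and C33T. That at chr2:153196767-153196973, within *Tm9sf4*, carries G24A, G35A and C61A, and that at chrX:89005436-89005642 carries G24A, C51A and C138T. Across the exons of *Sec61g*, 184 of 527 windows of 64 bases, or 34.9%, recur exactly elsewhere in the genome. A read that lies wholly within such a window matches more than a single place, and how the authors counted such reads is not given in the sources used here. A longer read, or a pair that reaches unique sequence, can still map to a single place. Windows across exon junctions were not searched.

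The list spanned a 296-fold range of exon level. Its median over the gene means was 40.3 FPKM, compared with a median of 5.7 FPKM for the background genes. The medians of the list within each mouse were 40.65 FPKM in replicate 1 and 42.6 FPKM in replicate 2 (SD 1.38, n = 2). Of the 34 genes, 30 were above the background median, 29 above the 75th percentile (12.6 FPKM) and 25 above the 90th percentile (28.5 FPKM), which 10% of background genes exceed. The 5 genes at 100 FPKM or more were *Ssr4*, *Ssr2*, *Tram1*, *Sec11c* and *Ssr3*, and the 4 genes under 3 FPKM were *Sec61a2*, *Tusc3*, *Sec61g* and *Tram2*. All genes together summed to 1875 FPKM in replicate 1 and 2510 FPKM in replicate 2. This was 0.220% and 0.140% of the summed exon FPKM of each mouse, or 1.07% and 1.49% when the 10 highest genes are left out of the sum. The order of the genes was alike in both mice (across genes, Spearman's rho 0.934 and Pearson's r 0.970 on the log2 scale, n = 34 genes that share the same libraries).

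**Figure D1:**
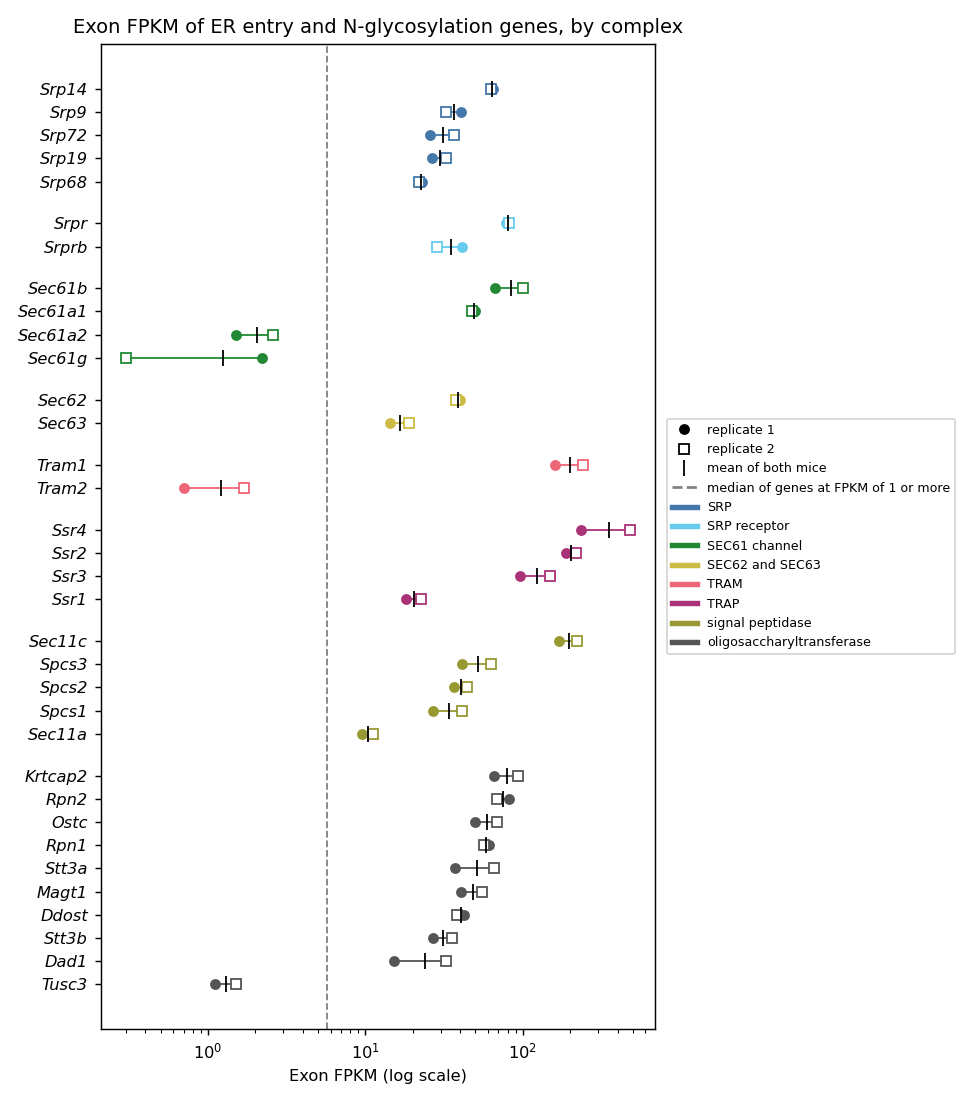
Exon FPKM (log axis) of the 34 ER entry and N-glycosylation genes, grouped by complex, with a point for each of the 2 mice. *Ssr4* is highest, at 233 and 477 FPKM, and *Sec61a2*, *Tusc3*, *Sec61g* and *Tram2* lie under 3 FPKM in both mice.

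The median of the 5 listed SRP genes was 31.2 FPKM, from 22.4 FPKM for *Srp68* to 63.6 FPKM for *Srp14*. *Srp14*, whose product pairs with SRP9 in the domain that slows elongation, was at 64.7 FPKM in replicate 1 and 62.5 FPKM in replicate 2 (63.6 ± 1.56, n = 2). *Srp9* was at 40.6 and 32.5 FPKM (36.5 ± 5.73), so *Srp14* exceeded its partner 1.59-fold and 1.92-fold. The partners therefore differed by more than the spread, although 28.0% of the *Srp9* windows recur elsewhere, and 2 near-identical copies of its coding sequence were found. *Srp72* was at 25.7 and 36.7 FPKM, and *Srp68*, the partner with which its product binds the RNA of the particle, was at 22.9 and 22.0 FPKM. *Srp19*, which acts in the assembly of the particle, was at 26.6 and 32.6 FPKM. The values of *Srp19* and *Srp72* overlapped, and both genes were above *Srp68* in both mice.

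At the membrane, the SRP receptor genes differed from each other. *Srpr*, the α subunit that meets SRP, was at 78.5 and 82.2 FPKM (80.3 ± 2.62), rank 270 of all 20515 genes. *Srprb*, the membrane anchor of the receptor, was at 40.9 and 28.6 FPKM (34.8 ± 8.70). *Srpr* was 1.92-fold and 2.87-fold above *Srprb*, more than the spread, and of its windows 23.8% recur elsewhere in the genome.

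The subunits of the SEC61 heterotrimer were far from equal in exon level. *Sec61b*, the β subunit, was at 66.5 and 100.9 FPKM (83.7 ± 24.3). *Sec61a1*, the pore-forming α subunit, was at 50 and 47.8 FPKM (48.9 ± 1.56). *Sec61g* was at 2.2 and 0.3 FPKM (1.25 ± 1.34), rank 9305 of all genes. *Sec61b* was thus 1.33-fold and 2.11-fold above *Sec61a1*, and *Sec61a1* was 22.7-fold and 159-fold above *Sec61g*, both beyond the spread, although the second ratio rests on a value of 0.3 FPKM. *Sec61b* has 3 near-identical copies, and 38.0% of its windows recur elsewhere, compared with 34.9% for *Sec61g*. *Sec62* and *Sec63*, which serve chains that enter after translation and help to open the channel, were at 39.7 and 37.4 FPKM and at 14.3 and 18.9 FPKM. *Sec62* exceeded *Sec63* 2.78-fold and 1.98-fold.

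The accessory factors of the channel included the highest genes of the list. *Tram1*, which contacts the entering chain beside SEC61, was at 159.5 and 240.3 FPKM (199.9 ± 57.1), rank 110. The TRAP complex had the highest median of the 8 complexes, 163 FPKM over its 4 genes. *Ssr4*, the δ subunit, was at 233.4 and 477.0 FPKM (355 ± 172), rank 58 of all genes. *Ssr2*, the β subunit, was at 189.1 and 216.7 FPKM (203 ± 19.5). *Ssr3*, the γ subunit, was at 96.5 and 149.7 FPKM (123 ± 37.6). *Ssr1*, the α subunit, was at 18.1 and 22.5 FPKM (20.3 ± 3.11). The 4 genes held the order *Ssr4*, *Ssr2*, *Ssr3* and *Ssr1* in both mice without overlap, with *Ssr4* at 12.9 and 21.2 times the level of *Ssr1*. The collapsed exons of *Ssr1* span 9339 bases and its shortest curated transcript 4750 bases; scaled to the latter its mean would be 39.9 FPKM, still below the other TRAP genes.

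Signal peptidase is built from SPCS proteins and a catalytic subunit that is either SEC11A or SEC11C. *Sec11c* was at 168.8 and 222.0 FPKM (195 ± 37.6), rank 114, whereas *Sec11a* was at 9.5 and 11.2 FPKM (10.3 ± 1.20). *Spcs1* was at 26.7 and 41.0 FPKM, *Spcs2* at 36.6 and 44.2 FPKM and *Spcs3*, required for catalysis, at 41.3 and 62.6 FPKM. All 3 of the accessory genes lay between the catalytic paralogs in both mice, and *Sec11c* was 6.32-fold and 5.41-fold above *Spcs1*. Exons of *Spcs1* and of *Glt8d1* on the opposite strand share 270 bases, and *Spcs2* has 1 near-identical copy.

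OST exists in a form with STT3A, which acts on chains during translocation, and a form with STT3B, which can act later. The subunits shared by both forms had a median of 49.4 FPKM. *Rpn2* was at 81.6 and 68.4 FPKM (75 ± 9.33), *Rpn1* at 60.6 and 56.6 FPKM (58.6 ± 2.83) and *Ddost* at 42.6 and 37.9 FPKM (40.2 ± 3.32), without overlap between neighbors in that order. *Dad1* was at 15.1 and 32.5 FPKM (23.8 ± 12.3), below these 3 genes. Its collapsed exons span 3735 bases compared with 697 bases for its shortest curated transcript, and scaled to that transcript its mean would be 128 FPKM, above all 3. The place of *Dad1* in the order therefore depends on the length by which its value is divided. For 22 of the 34 genes RefSeq has a single curated transcript, and *Dad1* and *Ssr1* are the 2 genes whose collapsed exons exceed the shortest transcript more than 1.5-fold.

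Among the subunits that belong to a single form, *Krtcap2* was at 65.2 and 93.6 FPKM, *Ostc* at 49.4 and 69.0 FPKM and *Stt3a* at 37.1 and 65.8 FPKM. KRTCAP2 and OSTC link the STT3A form to the channel, and across the mice the values of both genes overlapped those of *Stt3a*. Within each mouse, *Krtcap2* was 1.76-fold and 1.42-fold above *Stt3a*, and *Ostc* was 1.33-fold and 1.05-fold above it. For the STT3B form, *Stt3b* was at 27 and 35.4 FPKM, and the oxidoreductase subunits *Magt1* and *Tusc3* were at 40.7 and 55.1 FPKM and at 1.1 and 1.5 FPKM. The mean of log2(FPKM + 1) over the STT3A-specific genes was above that over the STT3B-specific genes by 2.02 ± 0.17 (n = 2). Most of this difference comes from the low value of *Tusc3*, which lay 4.40 below its paralog *Magt1* on this scale. The values of *Magt1* overlapped those of *Ostc* and *Stt3a*. The mean difference is therefore no measure of how far the forms themselves differ. The catalytic subunits alone differed less, with *Stt3a* above *Stt3b* by 0.66 ± 0.31 on the same scale.

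In the order of all 34 genes, 5 of the 33 neighboring pairs were separated beyond the spread. These were *Ssr4* above *Ssr2*, *Sec11c* above *Ssr3*, *Rpn2* above *Srp14*, *Sec63* above *Sec11a* and *Sec11a* above *Sec61a2*. The other neighbors, including the long run from *Srp14* down to *Sec63*, overlapped across the mice. An overlapping pair can still keep its order within each mouse, as *Ssr3* and *Sec61b* did, whereas *Ssr2* and *Tram1* changed places.

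At 5 steps of the route the mouse has a pair of paralogs, and in each pair the same paralog was higher in both mice. *Tram1* was 228-fold and 141-fold above *Tram2*, which was at 0.7 and 1.7 FPKM; on log2(FPKM + 1) the difference was 6.52 ± 0.06 (n = 2). *Magt1* was 37.0-fold and 36.7-fold above *Tusc3* (4.40 ± 0.12). *Sec61a1* was 33.3-fold and 18.4-fold above *Sec61a2*, which was at 1.5 and 2.6 FPKM (4.06 ± 0.42). *Sec11c* was 17.8-fold and 19.8-fold above *Sec11a* (log2 of *Sec11a* over *Sec11c*, -4.10 ± 0.12). *Stt3a* was 1.37-fold and 1.86-fold above *Stt3b*. No other tissue or stage was measured, so whether any of these pairs is particular to the lactating gland was not tested. The folds of FPKM are taken within a mouse and do not change when a library is rescaled, whereas the log2 differences hold an added 1 that shrinks those of low genes, such as *Tram2* and *Tusc3*, and can narrow their SD.

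**Figure D2:**
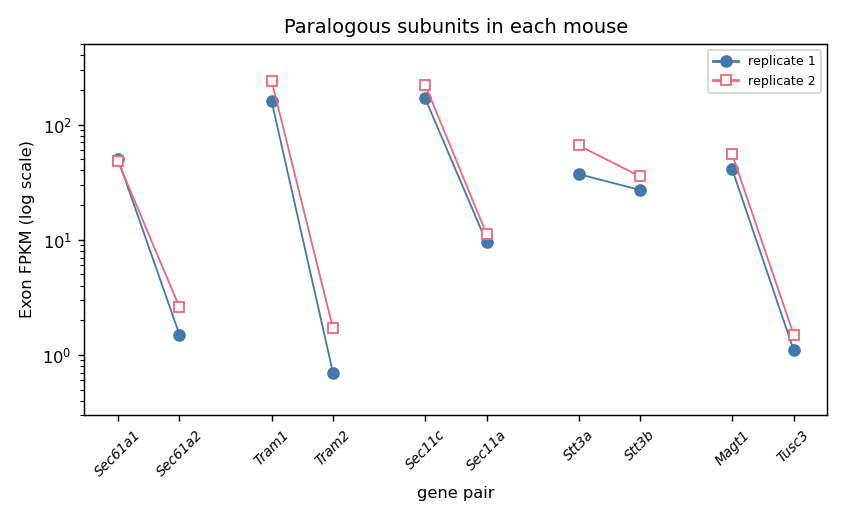
Exon FPKM (log axis) of the 5 pairs of paralogous subunits, with lines joining the paralogs within each mouse. *Tram1*, *Magt1*, *Sec61a1* and *Sec11c* stand more than 15-fold above their paralogs in both mice, and the lines of *Stt3a* and *Stt3b* fall least.

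The mice were next compared with each other. On the deposited scale, 24 of the 34 genes were higher in replicate 2 and 10 were lower, compared with 42.5% of background genes that were higher. The median log2 ratio of replicate 2 to replicate 1, taken on FPKM + 1, was 0.34 for the list and -0.08 for the background. TRAP (4 of 4 genes), signal peptidase (5 of 5), TRAM (2 of 2) and the 6 OST subunits of a single form were higher in replicate 2, while *Rpn1*, *Rpn2* and *Ddost* were lower. After the correction for GC content described below, all genes of TRAP, signal peptidase and TRAM and the 3 STT3A-specific genes were still higher. Of these, *Ssr1* and *Sec11a* were only at 0.03. Of the 3 STT3B-specific genes only 1 was still higher (*Magt1* at -0.03 and *Tusc3* at -0.17), and *Ddost* turned to 0.18. Signs this near to 0 do not set the complexes apart. This comparison is of 2 libraries of 1 genotype and carries no test.

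A change of more than 2-fold was found for 3 of the 34 genes, and for 581 of 9845 background genes (5.9%). *Ssr4* (log2 ratio 1.03) and *Dad1* (1.06) were more than 2-fold higher in replicate 2, as were 1.08% of background genes, and *Sec61g* (-1.30) was more than 2-fold lower, as were 4.82%. With counts of 2 and 1, these shares give no ground to set the list apart from the background. *Sec61g*, at 2.2 and 0.3 FPKM, passed the filter of a mean of 1 through replicate 1 alone. *Stt3a* (0.81), *Tram2* (0.67) and *Ssr3* (0.63) came next among the higher genes and *Srprb* (-0.50) among the lower.

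These differences are relative to the scale of each library. When each mouse was rescaled to the same summed exon FPKM, the median log2 ratio was -0.92 for the background and -0.67 for the list, and 1 gene of the list was higher and 32 lower among the 33 that still passed the filter. Rescaling shifts nearly all genes alike, so this split follows from the scale and is no separate result. The list stayed above the background, by 0.25 compared with 0.41 on the deposited scale. Under the rescaling 10 genes of the list and 43.9% of background genes were past 2-fold.

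The ratio also moved with GC content. Across background genes, Spearman's rho between exon GC content and the log2 ratio was -0.658, and across the 34 genes it was -0.246 (genes share both libraries and are not independent). Of the 11 genes with a GC content below 45%, 10 were higher in replicate 2, with a median log2 ratio of 0.43 compared with 0.29 for background genes in that range. Between 45% and 50%, 8 of 10 genes were higher (median 0.32, background 0.04). At 50% or more, 6 of 13 were higher (median -0.06, background -0.36). After a correction for GC content the median of the list was 0.15, that of the background -0.08, and 2 genes of the list (*Ssr4* at 1.28 and *Sec61g* at -1.28) were past 2-fold, as were 2.01% of background genes. *Dad1* fell short of 2-fold at 0.92, *Stt3a* went from 0.81 to 0.36 and *Ssr3* from 0.63 to 0.17, whereas *Krtcap2*, with the highest GC content of the list (56.6%), went from 0.52 to 0.93. Across the 34 genes, rho between GC content and the corrected ratio was 0.313, opposite in sign to that before correction. The corrected ratios of the list are therefore not free of a trend with GC content.

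**Figure D3:**
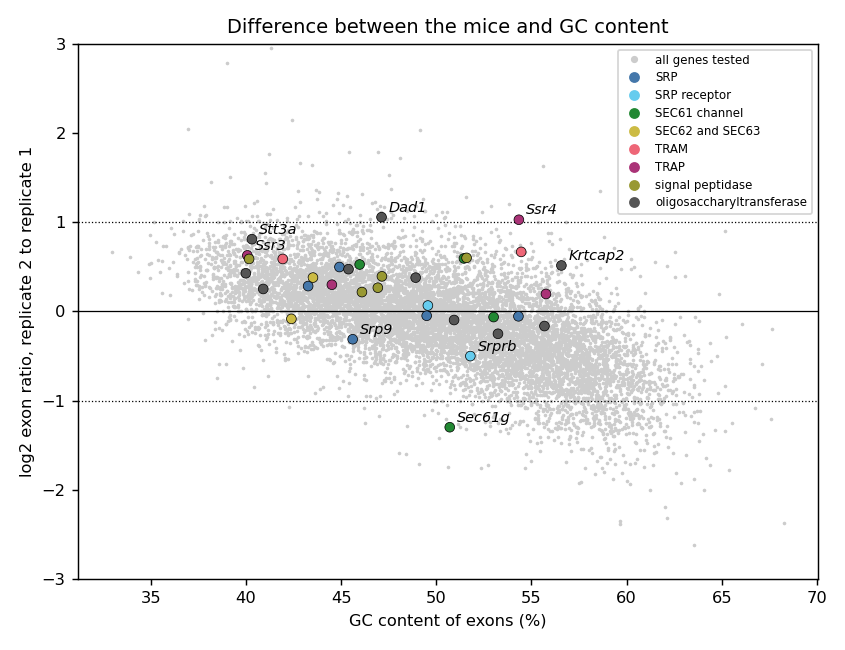
Log2 ratio of exon FPKM + 1 of replicate 2 to replicate 1 against exon GC content in percent, for background genes (grey) and the 34 ER entry genes (colored by complex); 1 background gene lies outside the range shown. The cloud falls from left to right, and *Ssr4* and *Dad1* stand above it and *Sec61g* below.

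Introns, which are present before splicing, gave a narrower picture than exons. The mean intron FPKM of the 34 genes ranged from 0.1 for *Tusc3* to 4.35 for *Ssr4*, a 43.5-fold range, with a median of 0.975 compared with 0.4 for the background, and 30 genes were above the background median. Across the 34 genes, Spearman's rho between exon and intron level was 0.516, as a description over genes measured in the same libraries. With 0.1 added to both, the log2 ratio of intron over exon had a median of -5.20 for the list and -3.55 for the background. This low ratio goes with the high exon level of the list, since the 845 background genes within the middle quartiles of its exon level (25.2 to 72.2 FPKM) had a median of -5.17 and an intron median of 1.0 FPKM.

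Genes with nearly the same intron signal differed widely in exon signal. *Ssr2* had the lowest intron to exon ratio of the list (log2 -7.34), with introns at 1.3 and 1.0 FPKM and exons 145 and 217 times higher. The OST genes *Ddost* (-7.07) and *Rpn2* (-6.97) followed, with introns at 0.3 and 0.1 FPKM and at 0.4 and 0.6 FPKM. *Ssr4*, with the highest exon level, also had the highest introns, at 4.0 and 4.7 FPKM. *Spcs1* was listed at 0.0 in the introns of replicate 1 and at 0.7 FPKM in replicate 2. At values this low the single decimal of the deposited FPKM limits the ratio.

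At the other end were the low paralogs and *Sec61g*. *Sec61a2* had introns at 0.7 and 1.2 FPKM, close to those of many genes with far higher exons, and its exons were 2.14 and 2.17 times its introns (log2 of intron over exon, -1.03). *Tram2* (-2.12) and *Tusc3* (-2.81) also lay above the background median but had introns at 0.2 and at 0.1 FPKM in both mice. *Sec61g* had introns at 1.1 and 1.5 FPKM, near those of *Sec61b* (0.9 and 1.3 FPKM) and *Sec61a1* (1.8 and 1.9 FPKM), while its exons were at 2.2 and 0.3 FPKM. In replicate 2 and in the mean of both mice its intron signal exceeded its exon signal, which held for 29 background genes, or 0.295%. Its exon value was thus low while its intron value was within the range of the other channel subunits. The sequences printed above show where its coding exons recur, and the part of repeated sequence in its low exon value was not tested.

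**Figure D4:**
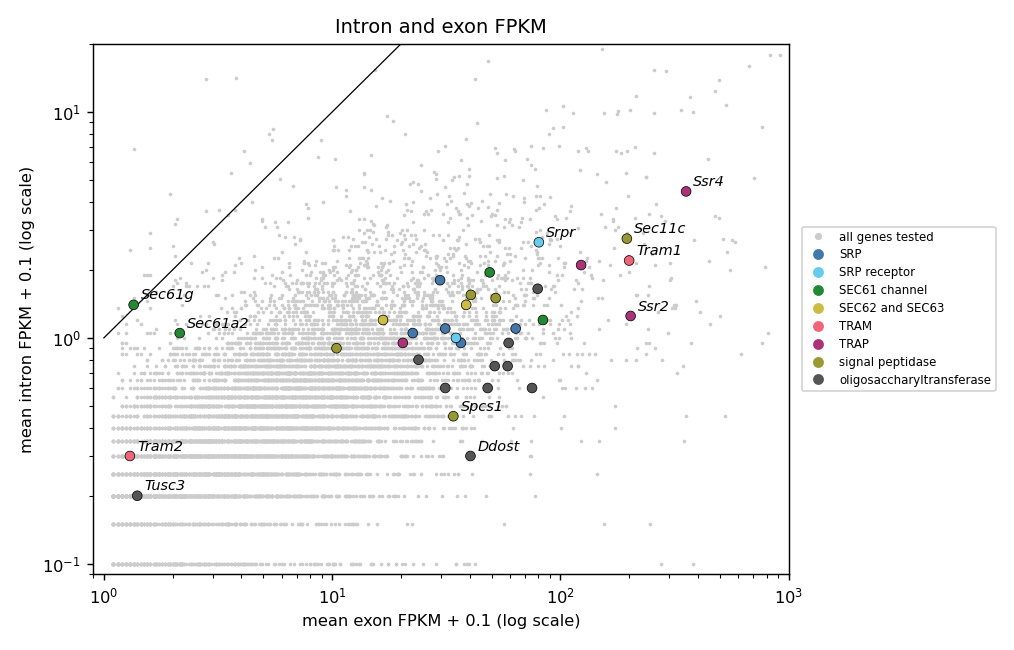
Mean intron FPKM against mean exon FPKM of both mice, each with 0.1 added and on log axes, for background genes (grey) and the 34 ER entry genes (colored by complex); the line marks equal values, and 36 background genes lie outside the range shown. *Sec61g* sits just above the line and *Sec61a2* nearest to it among the others, and *Ssr2* and *Ddost* lie lowest below it for their exon level.

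Near-identical copies were found for 4 of the 34 genes (*Sec61b*, *Sec61g*, *Spcs2* and *Srp9*) and for 6.85% of 9581 background genes with a coding sequence. The background genes with no copy had a median log2 intron to exon ratio of -3.58 (8925 genes), those with 1 copy -3.58 (459 genes), those with 2 to 4 copies -3.68 (138 genes) and those with 5 or more copies -3.06 (59 genes). *Sec61g*, with 5 copies, was above the last of these medians at 0.05, whereas *Sec61b*, with 3 copies, was at -6.13. Exons of 4 genes overlap those of a gene on the opposite strand. These are *Srpr* with *Fam118b* (39 bases), *Spcs1* with *Glt8d1* (270 bases), *Rpn1* with *Mir6376* (131 bases) and *Rpn2* with *Mroh8* (242 bases). The libraries were stranded, but whether the count used the strand is not given, so the part of reads from the opposite strand in these values was not tested.

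Promoter sequence, from 250 bases before to 50 bases after the start, was in the RefSeq table for 25 of the 34 genes. Motifs were searched on both strands. The ER stress response element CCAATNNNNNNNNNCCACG matched none of the 25 genes and 0.137% of all 27025 genes, and its variant ATTGGNCCACG matched *Krtcap2* and 0.0444% of all genes. The CCAAT box, which is also the first part of the former element, matched 14 of the 25 genes and 41.1% of all genes. STAT5, the factor at the core of mammary super-enhancers, recognizes TTCNNNGAA, which matched *Srprb* and *Sec61g* and 9.55% of all genes. In *Srprb* the match lies after the start. The match before the start of *Sec61g*, 69 bases away, is shown with 15 bases on each side, on the minus strand at chr11:16508534-16508572 of GRCm38, with the motif in capitals.
Sec61g promoter: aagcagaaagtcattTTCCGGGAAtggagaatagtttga
A match is a description of the letters only, and no binding was measured for it here.

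Genes that act beside these complexes were described from lists of the same pathway. Of the genes missing from the list itself, the small OST subunits *Ost4* (25.7 and 59.6 FPKM) and *Tmem258* (20.2 and 50.4 FPKM) were both more than 2-fold higher in replicate 2, as were 1.08% of background genes. After GC correction the log2 ratios of *Ost4* and *Tmem258* were 1.34 and 1.35, still past 2-fold, while that of *Dad1*, another small subunit, was 0.92. *Srp54b*, which encodes the GTPase of SRP, was at 2.3 FPKM in both mice and *Srp54a* at 0.2 and 0.0 FPKM. These values are below all 5 SRP genes above, and the paralogs share sequence, so the split between them is uncertain.

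The genes that build the lipid-linked glycan had a lower median than the genes of OST, which transfers it. The median over the glycan-building genes not listed at 0 was 8.5 FPKM, from *Alg13* at 0.7 FPKM to *Mpdu1* at 21.5 FPKM. The OST genes had a median of 49.7 FPKM, and their range, from 1.3 FPKM for *Tusc3* to 79.4 FPKM for *Krtcap2*, overlapped that of the glycan-building genes. Of the 20 glycan-building genes in the background, 15 were higher in replicate 2 and 5 lower, compared with 42.5% of all background genes that were higher. *Alg1* (12.4 and 4.6 FPKM) and *Dpm3* (30.3 and 10.7 FPKM) were more than 2-fold lower, as were 4.82% of background genes. After GC correction these ratios were -0.83 and -0.94, short of 2-fold. *Dpm1*, the catalytic subunit of dolichol-phosphate mannose synthase, was listed at 0 in exons and introns of both mice. In both mice 6190 genes are listed at 0, *Acta2* among them. Whether a given 0 stands for absent RNA or a failed estimate was not tested.

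The genes that trim the glycan and bind it afterwards had a median of 20.1 FPKM over 9 genes. *Calr*, the lectin chaperone calreticulin, was highest at 269.9 and 195.8 FPKM, *Mlec* was at 99.5 and 81.2 FPKM and *Canx* at 57.1 and 57.3 FPKM, whereas *Uggt2* was lowest at 0.5 and 0.6 FPKM. The values of *Calr* overlapped those of *Ssr2* and *Tram1*. Of the 8 tested genes 6 were lower in replicate 2 and 2 higher, compared with 42.5% of background genes that were higher. *Prkcsh* (27.3 and 12.9 FPKM), the β subunit of glucosidase II, was more than 2-fold lower, as were 4.82% of background genes. After GC correction its log2 ratio was -0.55, short of 2-fold.

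Of the factors for multipass membrane proteins, 12 were tested, with 6 higher and 6 lower in replicate 2, none past 2-fold. Their median was 15.2 FPKM, from *Emc9* at 1.25 FPKM to *Emc3* at 51.9 FPKM, and *Tmem147*, *Emc1* and *Emc8* were listed at 0. The 5 tested genes of tail-anchored insertion, a route that does not use SRP, had a median of 7.6 FPKM, from *Get4* at 4.45 FPKM to *Asna1* at 17.9 FPKM, with 1 higher and 4 lower in replicate 2 and *Ubl4a* listed at 0. Their median log2 ratio went from -0.63 to -0.10 after GC correction. *Asna1* and *Wrb* had no GC value and were not corrected. Of all background genes, 42.5% were higher in replicate 2 and 5.9% were past 2-fold. The medians of these lists were all below the 40.3 FPKM of the 34 genes, and no test was made between the lists.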

How the data were processed

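Total RNA-seq of L10 mammary tissue from 2 mice with the genotype labelled WT_wTbrg4 was used. The authors made stranded total RNA libraries, aligned reads with STAR to mm10, merged the exons of every transcript of a UCSC known gene, defined introns as the gaps, and used HTSeq for counting and DESeq2 for FPKM. The deposited values are these exon and intron FPKM with 1 decimal. The STAR version, the strand setting, the treatment of multi-mapped reads and the total used for scaling are not given in the sources used here. Library depth is unknown, so precision rests on 2 mice, and since 1 group was measured no test was run.

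Of 20550 rows, 35 had no usable symbol. Between the mice, log2((replicate 2 + 1)/(replicate 1 + 1)) was taken over genes whose exon FPKM averaged 1 or more, and a fold of 2 was counted. Intron to exon ratios used a pseudocount of 0.1. The GC correction was a lowess fit over 30% of the genes and was tested on simulated data. Lengths, GC content and positions came from curated RefSeq models on GRCm38 and matched 98.8% of the background genes. Copies were found with minimap2 2.31 from the longest coding sequence, and small RNA genes were taken from GENCODE M21. All 34 genes are named, and of other lists the highest, the lowest, those past 2-fold and genes of known role. The gene lists beside these were likewise chosen with earlier results of these data known. The genes *Canx*, *Mlec*, *Srp54a*, *Srp54b* and the neighbors within overlaps were named after their values were seen. Alternatives covered the scaling, pseudocounts, filters, GC content, copies, replicates and the exon length. The tools were pandas 2.3.3, statsmodels 0.14.6, pysam 0.24.0, scipy 1.17.1, numpy 2.4.6 and matplotlib 3.10.9 in Python 3.11.15.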

Additional observations from a re-analysis of the deposited data

How the results depend on the processing

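Of 78 alternative values, 62 moved by no more than the limit for their kind (the SD between the mice, 0.1 on the log2 scale for the median ratio between the mice, and 1.5-fold for a count), 15 moved further and 1 reversed. The 62 include values with 1 of the 2 mice left out. For a mean of 2 mice, such as the log2 ratio of a gene pair, these always stay within the SD. The count of 62 is therefore no measure of stability. Rescaling each mouse to the same summed exon FPKM turned the median log2 ratio between the mice from 0.34 to -0.67, raised the count past 2-fold from 3 to 10 and lowered the median exon FPKM from 40.3 to 34.7. The GC correction lowered the median log2 ratio to 0.15 and the log2 ratio of *Tram1* to *Tram2* from 6.52 to 6.21. The median exon FPKM was 44.1 without the genes that have a near-identical copy and 47.4 with the length of the shortest curated transcript, an alternative chosen after seeing the data. With a pseudocount of 0.1 in place of 1 the log2 ratio was 4.56 for *Sec61a1* to *Sec61a2*, 7.35 for *Tram1* to *Tram2*, 5.10 for *Magt1* to *Tusc3* and 2.27 for the STT3A-specific to the STT3B-specific subunits. A pseudocount of 0.5 moved the median log2 intron to exon ratio from -5.20 to -4.78. Beyond what each construction changes, the cause was not tested. With either mouse left out the median exon FPKM was 40.65 to 42.6, and leaving out 1 of 2 mice says nothing about stability. All paired genes kept the direction of their ratio under every alternative run. Since both mice had the same direction, neither a pseudocount nor leaving out a mouse could have turned it. Only the GC correction and the transcript length could have done so. No paired analysis was possible because the samples form a single group. Depth is unknown, and apart from it the single decimal given limits the ratios of low values, such as *Sec61g* at 0.3 FPKM in replicate 2 and introns at 0.1 FPKM.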
